A study of Arabidopsis thaliana with 24 samples.

Results

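The 6 genes described here, atpI, atpH, atpF, atpA, atpB and atpE, encode the plastid-made subunits of the chloroplast ATP synthase of Arabidopsis thaliana. They were chosen by the gene symbol that the supplied annotation gives to a probe set, and each of the 6 had 1 probe set among the 22810 on the array. All 6 passed the filter on dim probe sets. Another 63 plastid-encoded genes had a probe set.

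Transcript levels were measured on 24 Affymetrix arrays of whole 10-day-old Columbia seedlings, 2 biological replicates (rep) in each of 12 groups. The groups were the atmyc2 cop1-6 double mutant, cop1-6, atmyc2 and wild type (WT), each grown at 22 °C in constant blue light (35 µmol per s per m2) with abscisic acid (ABA, 0.5 with the unit written um in the labels), in constant blue light alone, or in constant darkness. AtMYC2 is a transcription factor with a helix-loop-helix domain that acts in jasmonate, ABA and light responses, and COP1, a ubiquitin ligase subunit, holds back light development in dark-grown seedlings. The labels name atmyc2 without an allele, and do not say whether the replicates came from separate cultures, so each p-value covers no more than the differences among these samples, which may be technical.

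The chloroplast ATP synthase uses the proton gradient that photosynthetic electron transport builds across the thylakoid membrane to make ATP. Its membrane part, CFo, holds the a subunit (atpI), the ring of c subunits (atpH) and a b-type stalk subunit (atpF), and its head, CF1, holds the alpha (atpA), beta (atpB) and epsilon (atpE) subunits made in the plastid. The remaining subunits, gamma, delta and the second b-type subunit, come from nuclear genes. In plants the plastid genes lie in a large operon, in the order rps2, atpI, atpH, atpF, atpA, and in a small one of atpB and atpE, which lies next to rbcL. The annotation gave the same neighbours, with the loci ArthCp010 (atpI), ArthCp009 (atpH), ArthCp008 (atpF), ArthCp007 (atpA), ArthCp029 (atpB) and ArthCp028 (atpE).

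Signals are the deposited intensities, and they are compared between groups for 1 probe set at a time, since different probe sets have no common scale. The dim level is 19.1, the 40th percentile of all signals. A change is the limma log2 fold change ± SE of log2(signal + 1), with the Benjamini-Hochberg adjusted p over 16196 tested probe sets and a threshold of 0.05, and n = 2 arrays per group throughout. Each background is the share of all tested probe sets called at that adjusted threshold. Counts at an unadjusted p have no such share beside them and are not to be set against it. Where a group mean lay below the dim level the fold depends on the pseudocount, so the value at a pseudocount of 19.1 is given too where it moved the fold by over 1.5 times. Whether the arrays of groups overlap is description only. With 2 arrays per group separation is common, and its share over all probe sets was not taken.

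Several features of the arrays ran with growth condition. Replicates correlated with r from 0.944 to 0.978 across probe sets, which are not independent replicates. The spike-in poly-A controls averaged 77.3 to 126 on the ABA arrays, 5.01 to 12.7 on the blue-light arrays, 209 to 338 on the dark arrays with cop1-6 and 862 to 986 on the dark arrays without it. Signals of the probe set for 25S ribosomal RNA were 28.5 to 96.3 in blue light and 4.6 to 189.9 in darkness. With ABA they were 769.5 to 1669 in lines with cop1-6 and 1970 to 2763 in lines without it. The first GAPDH probe set pair, whose log2 ratio of 3' to 5' signal is a sign of RNA quality, gave 0.25 to 0.74 with ABA, 0.39 to 0.74 in blue light, 0.51 to 0.85 on the dark arrays with cop1-6 and 0.84 to 1.26 on those without it. A second pair gave -0.32 and -0.33 in dark WT, -0.0009 and 0.005 in dark atmyc2, and -0.27 to 0.08 in the other groups. Array preparation and RNA quality therefore cannot be told apart from growth condition. Nor can they be told apart from the presence of cop1-6 in darkness or with ABA, or from atmyc2 against WT in darkness. The part of each in the results was not tested. The annotation lists no probe set for COP1 or MYC2, so the mutations were not checked on the arrays. The greening marker PSAN, a photosystem I subunit, averaged 2450 in blue-light WT against 40.8 in dark WT, and 696 in dark cop1-6. LHCB4.2, a light-harvesting antenna protein, averaged 2557 in blue-light WT against 632 in dark WT, but 1167 in blue-light cop1-6 against 1227 in dark cop1-6.

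Blue light gave all 6 genes higher signals in WT, by log2 changes from 2.44 (atpE) to 7.19 (atpF). The 6 of 6 called higher stand against 23.7% of all tested probe sets, and their median log2 change was 4.51, against -0.02 over all tested probe sets. The study asked here what growth in blue light changed relative to darkness. In whole seedlings, fewer cells with chloroplasts and less RNA per cell cannot be told apart.

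For the membrane subunits, atpI (the a subunit) read 36.5 and 72.0 on the blue-light WT arrays, against 4.2 and 4.4 on the dark ones, all dark values lying below the dim level. Its log2 change was 3.30 ± 0.48 (adjusted p = 1.85e-05), or 1.60 at a pseudocount of 19.1. The c-ring gene atpH read 1084.6 and 1492.6 in blue-light WT, against 28.9 and 17.1 in dark WT. That is a log2 change of 5.77 ± 0.35, or 4.95 at the higher pseudocount, and the arrays of both conditions lay far apart. The stalk gene atpF read 1370.9 and 1744 in blue-light WT, against 8.4 and 10.9 in dark WT. Both of its dark signals lay below the dim level. At a pseudocount of 19.1 its log2 change of 7.19 ± 0.29 became 5.77, which still exceeded that of every other gene of the 6.

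For the head subunits, atpA (alpha) read 3641.3 and 3839 in blue-light WT, against 66.7 and 73.0 in dark WT. Its log2 change of 5.72 ± 0.17 had the lowest adjusted p of the 6 (1.95e-14), and all its signals lay above the dim level. The beta gene atpB read 5983.4 and 5665.8 in blue-light WT, against 1114.6 and 996.2 in dark WT, a log2 change of 2.46 ± 0.12. The epsilon gene atpE, its operon partner, read 5186.1 and 4983 in blue-light WT, against 1033.6 and 846.9 in dark WT, a log2 change of 2.44 ± 0.14. Both genes of the small operon thus had a clear dark signal and changed by about the same factor. In blue light atpB read 85.0 to 100% of the highest signal of its own array, and whether a ceiling limited its fold was not tested.

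**Figure D1:**
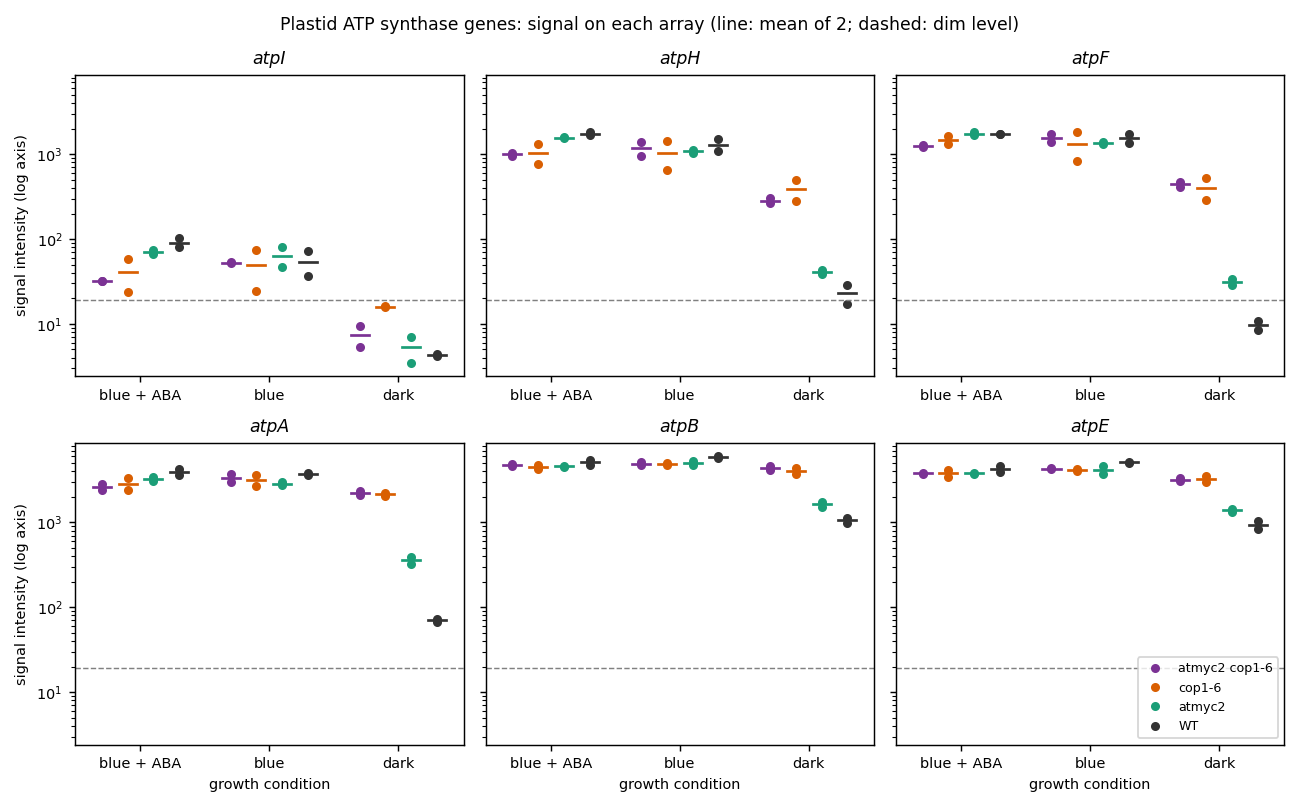
Signal intensity (log axis) of each gene on each of the 24 arrays, by growth condition and genotype, with a point per array, a line at the mean of 2 arrays and a dashed line at the dim level of 19.1. In dark WT every gene has its lowest group mean (4.3 for atpI, 69.8 for atpA, 1055 for atpB), and the dark groups with cop1-6 lie closer to the light groups.

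In atmyc2 all 6 genes also rose in blue light (background 34.4% higher), with a median log2 change of 3.18 against 0.28 over all tested probe sets. The atpF signal was 1310.4 and 1407.3 in blue-light atmyc2, against 28.7 and 34.1 in dark atmyc2, a log2 change of 5.40 ± 0.29 (4.77 at a pseudocount of 19.1). For atpA the signals were 2993 and 2732 in blue light, against 390.0 and 325.2 in darkness (log2 3.00 ± 0.17). The atpB and atpE changes were 1.61 ± 0.12 and 1.57 ± 0.14 on the log2 scale. The atpI change of 3.36 ± 0.48 fell to 1.73 at the higher pseudocount.

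Blue light raised 5 of the 6 genes in cop1-6 (background 30.6% higher) and 5 of the 6 in the double mutant (background 19.9%), atpB being the exception in both. The changes were smaller, with median log2 values of 0.96 in cop1-6 and 1.19 in the double mutant, against 0.14 and 0.03 over all tested probe sets. In cop1-6 atpF read 838.3 and 1829.8 in blue light, against 287.2 and 522.2 in darkness, a log2 change of 1.67 ± 0.29 (adjusted p = 1.01e-04). The alpha gene atpA read 2710.5 and 3642.4 in blue light, against 2219.3 and 2054.7 in darkness (log2 0.56 ± 0.17, adjusted p = 0.0111). The beta gene atpB read 5057.3 and 4770.7 in blue light, against 4414.3 and 3745.9 in darkness, a log2 change of 0.27 ± 0.12 that missed the threshold (adjusted p = 0.0709).

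In the double mutant the log2 changes were 2.71 ± 0.48 for atpI (1.44 at a pseudocount of 19.1), 2.02 ± 0.35 for atpH, 1.80 ± 0.29 for atpF, 0.58 ± 0.17 for atpA, 0.17 ± 0.12 for atpB (adjusted p = 0.28) and 0.42 ± 0.14 for atpE. The c-ring gene atpH read 955.7 and 1392.8 in blue light, against 303.4 and 265.8 in darkness, with no overlap. For atpB the ranges in the double mutant, 4736.7 and 5126.7 in blue light against 4162.7 and 4577.9 in darkness, did not overlap either, although the gene was not called.

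Each cop1-6 call except that of atpF was lost without at least 1 array. Without rep 2 of blue-light cop1-6 only atpF was called, the atpI change being 0.57 (adjusted p = 0.382), and without rep 2 of dark cop1-6 atpI, atpA and atpE were lost. Without rep 1 of dark cop1-6 atpI and atpH were lost and atpB was gained (adjusted p = 0.0391), and without rep 1 of blue-light cop1-6 atpE was lost and the atpI change became 2.17. In the double mutant atpE was lost without any 1 of the 4 arrays (adjusted p from 0.0574 to 0.117), and atpA without rep 1 in darkness or rep 2 in blue light (0.0973 to 0.125). Under quantile normalization atpB rose in both lines, with log2 changes of 0.63 in cop1-6 (adjusted p = 5.13e-05) and 0.27 in the double mutant (0.0381).

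**Figure D2:**
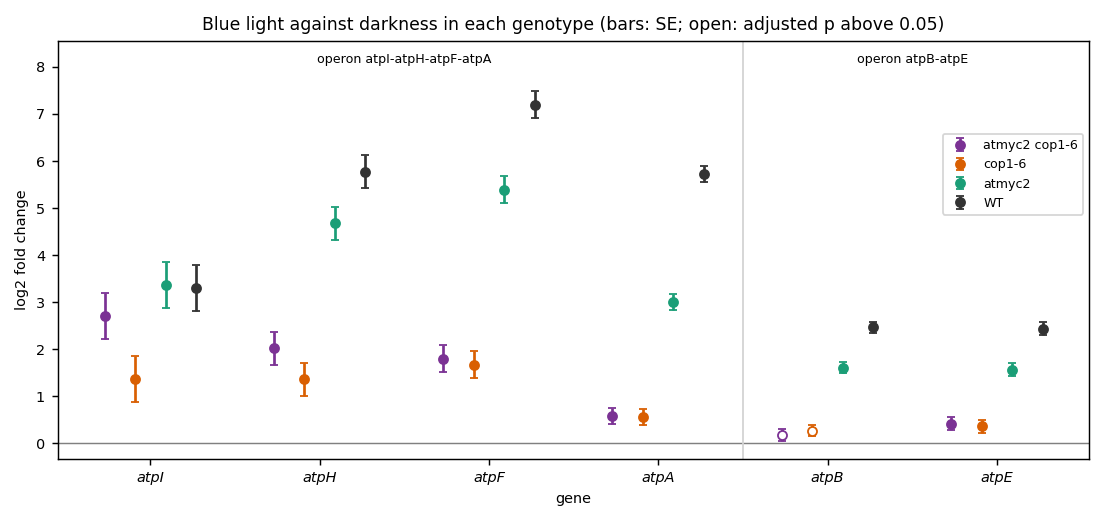
Log2 fold change of blue light against darkness for each gene in each genotype, with bars of 1 SE, filled points for an adjusted p at or below 0.05 and open points above it. The WT changes run from 2.44 to 7.19 and the cop1-6 changes from 0.27 to 1.67, with atpB open in both lines that carry cop1-6.

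Whether the light response differed from that of WT was tested directly. It was smaller in cop1-6 for 6 of 6 genes (background 17.2% lower), with log2 differences from -5.52 ± 0.40 (atpF) to -1.93 ± 0.68 (atpI). In the double mutant it was smaller for 5 of 6 (background 15.4%), from -5.39 ± 0.40 for atpF to -2.02 ± 0.20 for atpE, atpI missing the threshold at -0.59 ± 0.68 (adjusted p = 0.556). In atmyc2 it was smaller for 4 of 6 (background 3.16%), with -2.72 ± 0.24 for atpA, -1.80 ± 0.40 for atpF, -0.87 ± 0.20 for atpE and -0.85 ± 0.18 for atpB. For atpH the atmyc2 difference was -1.10 ± 0.49 (adjusted p = 0.167), and for atpI it was 0.06 ± 0.68 and changed sign under quantile normalization (-0.13). Each of these tests shares its dark and blue-light arrays with the comparisons of single genotypes, so it adds no separate samples.

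The large-operon differences that touch dim arrays were smaller at a pseudocount of 19.1. In cop1-6 atpI then had -0.74 (adjusted p = 0.203) and lost its call, while atpH had -3.64 and atpF -4.14. In the double mutant atpH had -3.00 and atpF -4.01, and in atmyc2 atpF had -0.997 (adjusted p = 0.110) and lost its call. Quantile normalization gave -4.46 for atpA in cop1-6, and in atmyc2 it ended the calls of atpB (-0.31, adjusted p = 0.209) and atpE (-0.40, adjusted p = 0.143). The atpI call in cop1-6 was also lost without any of 6 of the 8 arrays (adjusted p from 0.0686 to 0.216), and its difference was -2.73 without rep 2 of blue-light cop1-6. In atmyc2 rep 2 of the blue-light arrays mattered most, since only atpA was called without it; atpE was also lost without rep 1 of dark atmyc2, rep 2 of dark WT or rep 1 of blue-light WT, and atpF without rep 2 of dark atmyc2.

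Darkness separated the genotypes. In cop1-6 all 6 genes were higher than in WT (background 16.2% higher), with a median log2 difference of 2.98 against -0.04 over all tested probe sets. The question was what loss of COP1 function changed in each growth condition. The alpha gene atpA read 2219.3 and 2054.7 in dark cop1-6, against 66.7 and 73.0 in dark WT, a log2 difference of 4.92 ± 0.17 (adjusted p = 9.77e-13). The stalk gene atpF read 287.2 and 522.2 in dark cop1-6, against 8.4 and 10.9 in dark WT (log2 5.20 ± 0.29, or 3.83 at a pseudocount of 19.1). For atpH the signals were 277.2 and 502.0 in dark cop1-6, against 28.9 and 17.1 in dark WT (log2 4.01 ± 0.35, or 3.24 at the higher pseudocount). For these genes the dark cop1-6 signals were many times those of dark WT.

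In the small operon atpB read 4414.3 and 3745.9 in dark cop1-6, against 1114.6 and 996.2 in dark WT (log2 1.95 ± 0.12). Its partner atpE read 3535.1 and 2957.4 in dark cop1-6, against 1033.6 and 846.9 in dark WT (log2 1.79 ± 0.14). Both differences were far larger than the spread between replicates. The a-subunit gene atpI read 15.8 and 16.2 in dark cop1-6, against 4.2 and 4.4 in dark WT, all below the dim level. Its log2 difference of 1.68 ± 0.48 (adjusted p = 0.0135) was 0.58 at a pseudocount of 19.1 (adjusted p = 0.171), and its call was lost without any 1 of the 4 arrays (adjusted p from 0.0507 to 0.0604).

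The double mutant set against atmyc2 in darkness, the same question in the other background, gave 5 of 6 genes higher (background 28.8%). The log2 differences were 3.78 ± 0.29 for atpF (3.20 at a pseudocount of 19.1), 2.76 ± 0.35 for atpH, 2.64 ± 0.17 for atpA, 1.43 ± 0.12 for atpB and 1.21 ± 0.14 for atpE. The atpA signals were 2093.3 and 2364.5 in the dark double mutant, against 390.0 and 325.2 in dark atmyc2. For these 5 genes both double mutant arrays read above both atmyc2 arrays, without a share over all probe sets to set this against. For atpI the signals were 5.4 and 9.4 in the double mutant, against 7.1 and 3.5 in atmyc2, which overlap (log2 0.43 ± 0.48, adjusted p = 0.49).

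In dark atmyc2 4 of the 6 genes were called higher than in dark WT (background 4.54% higher). The median log2 difference was 0.74, against -0.10 over all tested probe sets. The largest was that of atpA, with 390.0 and 325.2 in dark atmyc2, against 66.7 and 73.0 in dark WT (log2 2.34 ± 0.17, adjusted p = 2.92e-07). The stalk gene atpF read 28.7 and 34.1 in dark atmyc2, against 8.4 and 10.9 in dark WT (log2 1.61 ± 0.29, adjusted p = 0.00176), and at a pseudocount of 19.1 it had 0.81 and no call (adjusted p = 0.0642). For both genes the atmyc2 arrays lay above the WT arrays. The atpB signals were 1514.7 and 1735.8 in dark atmyc2, against 1114.6 and 996.2 in dark WT (log2 0.62 ± 0.12, adjusted p = 0.00386).

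The epsilon gene atpE read 1432.9 and 1331.7 in dark atmyc2, against 1033.6 and 846.9 in dark WT (log2 0.56 ± 0.14, adjusted p = 0.0151). The atpB call was lost without rep 2 of dark atmyc2 (adjusted p = 0.0598), and the atpE call without either dark atmyc2 array or rep 2 of dark WT (0.0569 to 0.145). The c-ring gene atpH read 38.7 and 43.6 in dark atmyc2, against 28.9 and 17.1 in dark WT, which do not overlap, yet its log2 difference of 0.86 ± 0.35 missed the threshold (adjusted p = 0.128). For atpI the log2 difference was 0.19 ± 0.48, and it changed sign when single arrays were left out (-0.24 to 0.61).

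In the cop1-6 background loss of AtMYC2 gave 0 of 6 calls in darkness by limma (background 1.67% in either direction). At an unadjusted p under 0.05 there was 1 gene, atpI. The log2 differences of the double mutant from cop1-6 ran from -1.06 (atpI) to 0.20 (atpF), with 95% intervals from -2.07 to 0.80 over the 6 genes. For atpA the signals were 2093.3 and 2364.5 in the double mutant, against 2219.3 and 2054.7 in cop1-6, which overlap. The atmyc2 by cop1-6 interaction in darkness, that is, the effect of losing AtMYC2 in cop1-6 minus its effect in WT, was negative for atpA (-2.28 ± 0.24, adjusted p = 8.75e-05) and atpF (-1.41 ± 0.40, adjusted p = 0.0296). Those 2 of 6 stand against 4.51% of all tested probe sets called lower. The values for the other 4 were -1.25 for atpI, -1.25 for atpH, -0.52 for atpB and -0.58 for atpE, with adjusted p from 0.0569 to 0.228. The atpF call was lost at a pseudocount of 19.1 (-0.63, adjusted p = 0.286) and without any of 6 of the 8 arrays (0.0525 to 0.0985). Leaving out rep 2 of dark cop1-6 gave calls for atpB (adjusted p = 0.0220) and atpE (0.0254), and leaving out rep 1 of dark WT gave one for atpE (0.0463).

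**Figure D3:**
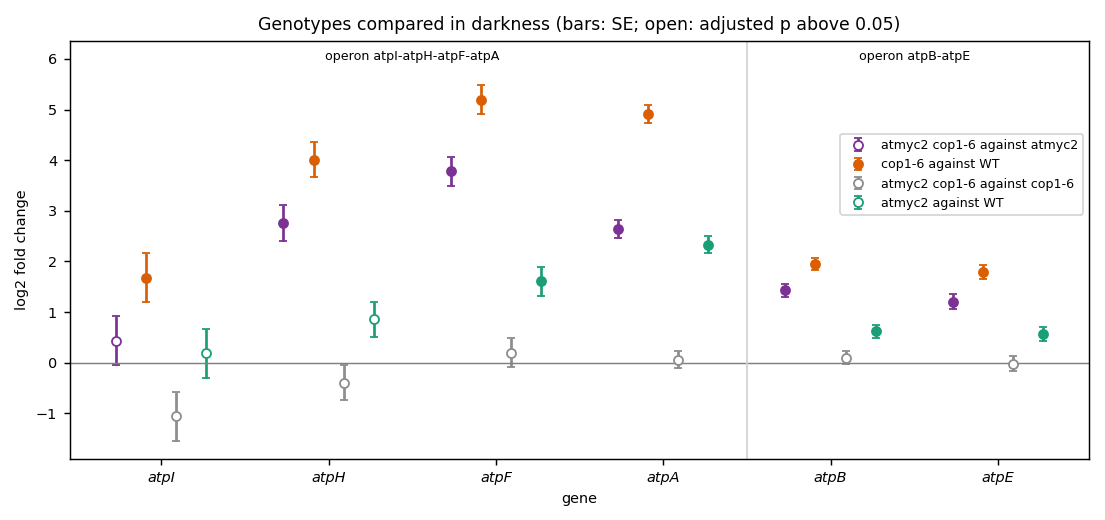
Log2 difference between genotypes in darkness for each gene, with bars of 1 SE, filled points for an adjusted p at or below 0.05 and open points above it. The differences of cop1-6 from WT reach 5.20 (atpF) and those of atmyc2 from WT reach 2.34 (atpA), while all 6 points for the double mutant against cop1-6 are open.

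In blue light no member was called different between genotypes by limma. Counts were 0 of 6 for cop1-6 against WT (0 at an unadjusted p under 0.05, background 35.2% in either direction), for atmyc2 against WT (2 unadjusted, background 0.0123%), for the double mutant against cop1-6 (0 unadjusted, background 0.0185%) and for the double mutant against atmyc2 (0 unadjusted, background 9.65%). The cop1-6 differences from WT ran from -0.41 (atpH) to -0.25 (atpB), with 95% intervals from -1.26 to 0.76 over the 6 genes. The widest spread was that of cop1-6, where atpH read 646.3 and 1421.3 and atpI 24.3 and 75.3 on the 2 blue-light arrays. Without rep 2 of blue-light cop1-6, 1 gene was called against WT.

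With ABA in blue light the counts between genotypes were again 0 of 6 in the fit of all arrays. For cop1-6 against WT the background of calls was 4.85% in either direction. The log2 differences ran from -1.24 ± 0.48 (atpI, adjusted p = 0.165) to -0.17 ± 0.14 (atpE), and 3 genes had an unadjusted p under 0.05. The atpI signals were 23.9 and 58.6 in cop1-6 with ABA, against 102.1 and 79.6 in WT with ABA. The 3 genes with a low unadjusted p were atpI, atpH and atpA. Their lower signals on both cop1-6 arrays than on either WT array are the same data and add no support. Without rep 2 of the cop1-6 ABA pair 2 genes were called. The counts were 0 of 6 for atmyc2 against WT (0 unadjusted, background 0.037%), for the double mutant against cop1-6 (0 unadjusted, background 0.253%) and for the double mutant against atmyc2 (1 unadjusted, atpI, background 4.74%). For the double mutant against atmyc2, fitting only the arrays compared called 4 of the 6.

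In the limma fit of all 24 arrays ABA gave no call for any of the 6 genes in any genotype, and none had an unadjusted p under 0.05. Fitting only the arrays compared called 2 of the 6 in atmyc2. The question was what ABA changed in blue-light seedlings, and the shares of all tested probe sets called in either direction were 34.9% in WT, 21.8% in atmyc2, 13.4% in cop1-6 and 23.3% in the double mutant. In WT the log2 changes were 0.80 ± 0.48 for atpI, 0.45 ± 0.35 for atpH, 0.16 ± 0.29 for atpF, 0.07 ± 0.17 for atpA, -0.19 ± 0.12 for atpB and -0.26 ± 0.14 for atpE. The atpI signals were 102.1 and 79.6 with ABA, against 36.5 and 72.0 without, and the atpE signals 3908 and 4618.9 with ABA, against 5186.1 and 4983 without. Neither pair of ranges overlapped, nor did those of atpH and atpB, though none of these genes was called. The ranges of atpF and atpA did overlap. The 95% intervals allow a log2 change of up to 1.81 for atpI and down to -0.55 for atpE.

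The log2 changes with ABA ran from -0.12 to 0.54 in atmyc2, from -0.19 to 0.24 in cop1-6 and from -0.70 to -0.05 in the double mutant. In the double mutant atpI read 31.7 and 32.2 with ABA, against 53.0 and 51.9 without (log2 -0.70 ± 0.48, adjusted p = 0.328). No member's ABA response was called different from that of WT, with 0, 0 and 1 genes at an unadjusted p under 0.05 in atmyc2, cop1-6 and the double mutant and backgrounds of 0, 6.71 and 9.27% in either direction. The interaction of the mutations gave 0 of 6 calls in blue light and 0 of 6 with ABA (0 unadjusted in each, background 0% in each).

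Set in order of mean signal, the 12 groups fell the same way for all 6 genes at the low end. Dark WT was the lowest and dark atmyc2 the second lowest, next came the dark double mutant and dark cop1-6, and the 8 light groups stood above them. The ranges of dark atmyc2 and dark WT did not overlap for any gene but atpI, although atpH was not called between them. Those of the dark cop1-6 lines and dark atmyc2 did not overlap either, again except for atpI, where the dark double mutant overlapped with dark atmyc2 but not with dark cop1-6. The light group with the lowest mean lay clear of the dark group with the highest mean for all genes but atpB, for which cop1-6 with ABA (4263.3 and 4758.6) overlapped with the dark double mutant (4162.7 and 4577.9). For atpE another light group overlapped, since rep 1 of cop1-6 with ABA (3446.4) lay below rep 1 of dark cop1-6 (3535.1).

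Within the light groups most neighbours overlapped. The highest mean was that of WT with ABA for atpI (90.8 ± 15.9, SD), atpH (1738 ± 92.1) and atpA (3933 ± 411), and that of atmyc2 with ABA for atpF (1741 ± 105). For atpB (5825 ± 225) and atpE (5085 ± 144) blue-light WT stood highest, clear of the next group. The large operon thus had its highest means in ABA groups, not in the same one for every gene, and the small operon in blue-light WT. These orders were not tested, and no ABA change of a member was called in the fit of all arrays.

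Members of the same operon were compared by the log2 ratio of neighbouring genes on the same array, whose difference between groups shows unequal change of the neighbours and cancels any factor common to them. Each difference was tested by an exact two-sided permutation test within genotypes, or within growth condition and background for the mutations, over 4 pairs and 4 contrasts with Benjamini-Hochberg adjustment over those 16. The level of a ratio is not read.

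In the small operon no unequal change of atpB and atpE was called. Their ratio differed by -0.07 between blue light and darkness (exact p = 0.230, adjusted 0.306), by 0.06 between ABA and blue light (adjusted 0.195), by 0.07 between lines with and without cop1-6 (adjusted 0.195) and by 0.05 between lines with and without atmyc2 (adjusted 0.195). By genotype the light difference was -0.25 in the double mutant, -0.09 in cop1-6, 0.04 in atmyc2 and 0.02 in WT. No such difference of the atpB to atpE ratio passed a log2 size of 0.25 in any genotype, while the genes themselves changed by up to 2.46.

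In the large operon the members did not change equally. The ratio of atpF to atpA averaged -1.20 in blue light and -2.75 in darkness, a difference of 1.55 (exact p = 0.00154, the smallest these arrays allow, adjusted 0.0123). It was higher in blue light in each genotype, by 1.23 in the double mutant, 1.12 in cop1-6, 2.39 in atmyc2 and 1.47 in WT. At a pseudocount of 19.1 the difference was 1.12 (adjusted 0.00823), and that in WT, where both dark atpF signals lay below the dim level, was 0.37. The b-type stalk gene thus changed more between darkness and blue light than the alpha gene next to it. The cop1-6 lines differed from the others by 0.23 in this ratio (adjusted 0.204) and the atmyc2 lines by 0.003 (adjusted 0.986), and ABA arrays from blue-light arrays by 0.17 (adjusted 0.195).

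The ratio of atpH to atpF was lower in lines with cop1-6 by -0.52 (exact p = 5.57e-04, adjusted 0.00892). That difference was mainly one of the dark arrays, with -1.02 for the double mutant against atmyc2 and -1.19 for cop1-6 against WT, and -0.09 for each in blue light. With ABA it was -0.15 and -0.55. The light contrast of this ratio was -0.56 (exact p = 0.0278, adjusted 0.111), which did not pass, with values of 0.22 in the double mutant, -0.32 in cop1-6, -0.72 in atmyc2 and -1.42 in WT. At a pseudocount of 19.1 the WT light value was -0.81 and the dark difference of cop1-6 from WT was -0.59. The dark WT arrays had the widest ratio range, 0.61 to 1.67, and 3 of their 4 signals lay below the dim level (atpF at 8.4 and 10.9, atpH at 17.1).

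The ratio of atpI to atpH was lower in lines with cop1-6 by -0.96 (exact p = 0.00304, adjusted 0.0162). In darkness it was -2.33 in either background, and in blue light -0.32 for the double mutant against atmyc2 and 0.16 for cop1-6 against WT. All 8 dark atpI signals lay below the dim level, and the call did not hold at a pseudocount of 19.1 (-0.87, adjusted 0.0509). The light contrast was -0.77 (adjusted 0.195) at a pseudocount of 1 and -1.69 (adjusted 0.00823) at 19.1, so it depends on how dim values are treated. It also averages unlike genotypes, with 0.69 in the double mutant, 0.01 in cop1-6, -1.31 in atmyc2 and -2.47 in WT at a pseudocount of 1. At 19.1 these light differences were -0.52, -0.45, -2.45 and -3.35.

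A ratio between the operons, atpA over atpB, was added after the data were seen, with its own adjustment over 4 contrasts. It averaged -0.66 in blue light and -1.996 in darkness, a difference of 1.33 (exact p = 0.00309, adjusted 0.0123). The blue-light atpB signals were 85.0 to 100% of the highest on their arrays, and whether a ceiling entered this ratio was not tested. By genotype the light difference was 0.40 in the double mutant, 0.28 in cop1-6, 1.39 in atmyc2 and 3.26 in WT. In darkness the ratio stood higher by 2.97 in cop1-6 than in WT and by 1.71 in atmyc2 than in WT, and the difference between lines with and without cop1-6 over all conditions was 0.62 (adjusted 0.121).

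**Figure D4:**
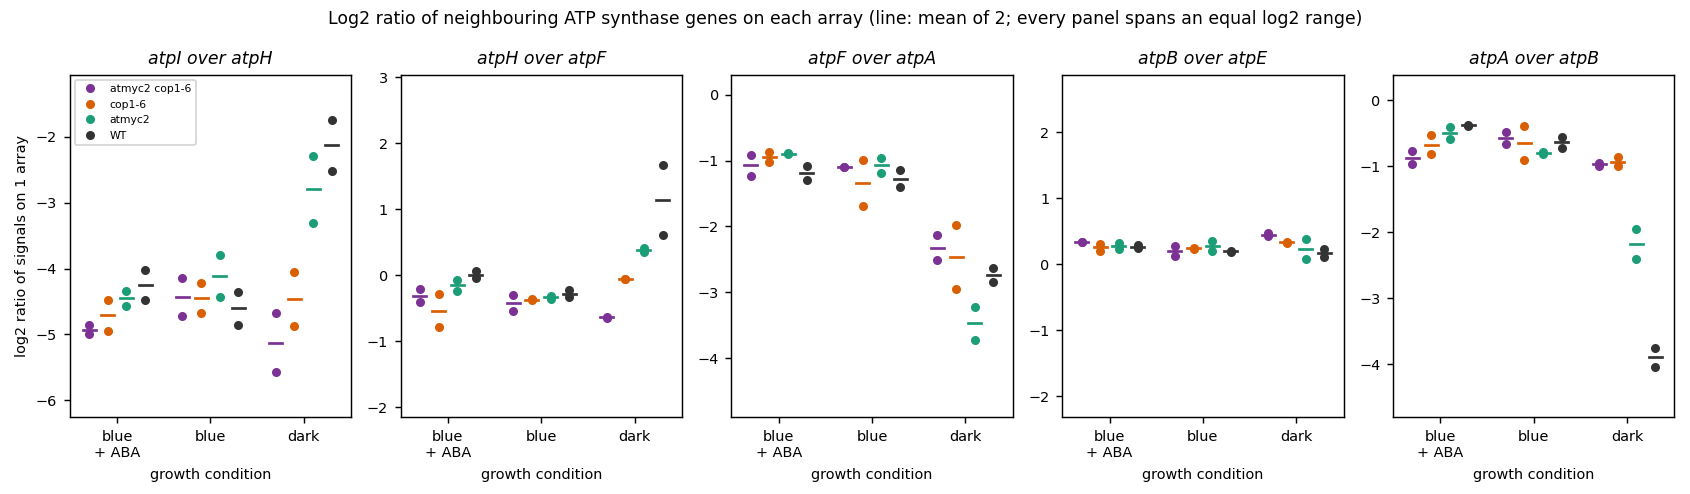
Log2 ratio of the signals of gene pairs on each array, by growth condition and genotype, with a point per array and a line at the mean of 2, every panel spanning an equal log2 range. The atpB to atpE ratio stays within 0.08 to 0.47 on all arrays, the atpF to atpA ratio is lower in darkness in each genotype, and the atpA to atpB ratio of dark WT lies at -3.90.

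Over the 12 group means on the log2 scale, the members of the small operon correlated with r = 0.995 and those of the large one with r from 0.809 (atpI and atpA) to 0.992 (atpH and atpF). Between operons r ran from 0.807 (atpI and atpB) to 0.989 (atpA and atpB). The points share arrays and are spread mainly by darkness against light, so these values describe the groups only. Membership of an operon did not order them, atpA being closer to atpB than to atpF (0.973), a comparison that was not tested.

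The genes most alike were sought among 1263 other tested genes with a symbol other than the locus code, at most 63 of them plastid-encoded. Probe sets without such a symbol were not searched. The 3 with the highest correlation over the same 12 means were mostly plastid genes. They were psbB (0.963), the nuclear F-box gene AFR (0.949) and psaA (0.948) for atpI, and psaA (0.994), rpoC1 (0.991) and the glutathione transferase gene GSTU18 (0.991) for atpH. For atpF they were psaB (0.992), rbcL (0.991) and rps2 (0.991), the last being its operon neighbour, and for atpA psaI (0.998), petA (0.990) and rpl32 (0.990). For atpB they were psaI (0.990), rps4 (0.989) and rpl32 (0.986), and for atpE the nuclear photosystem II gene PSBW (0.991), psaI (0.988) and rps4 (0.986).

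The genes that flank the operons also rose in blue light. The ribosomal protein gene rps2, upstream of atpI, averaged 961 in blue-light WT against 34.3 in dark WT (log2 4.76 ± 0.23), and rbcL, for the large subunit of RuBisCO, 602 against 16.2 (log2 5.05 ± 0.61). In dark cop1-6 rps2 was 3.42 and rbcL 3.40 log2 units above dark WT, and their light responses were smaller in cop1-6 than in WT by -3.45 ± 0.33 and -3.56 ± 0.86. The dark WT mean of rbcL lay below the dim level, so these 3 rbcL values depend on the pseudocount, and no other pseudocount was tried for them. With ABA in WT rps2 rose (log2 0.82 ± 0.23, adjusted p = 0.0114). The estimate for atpI next to it was close to that (log2 0.80) but was not called, and atpH, atpF and atpA were not called either. Whether rps2 and these genes changed unequally was not tested. Of the 4 plastid RNA polymerase genes, rpoA (log2 2.13), rpoC1 (4.81) and rpoC2 (3.78) rose in blue-light WT (background 23.7% higher) and rpoB had 0.53. With ABA in WT rpoB (2.36), rpoC1 (1.13) and rpoC2 (1.78) rose (background 19.3% higher).

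Of the 4 nuclear subunit genes listed, ATPC1 and ATPC2, both for gamma subunits, had a tested probe set. ATPC1 averaged 2289 in blue-light WT against 290.1 in dark WT (log2 2.98 ± 0.15), and ATPC2 30.6 against 55.9, which was lower (log2 -0.84 ± 0.25, adjusted p = 0.0109). In dark cop1-6 ATPC1 stood 1.36 above dark WT, its light response was smaller in cop1-6 than in WT by -1.54 ± 0.21, and with ABA in WT it was lower (log2 -0.46 ± 0.15, adjusted p = 0.0196). All 3 tested assembly factor genes of 5 listed rose in blue-light WT (background 23.7% higher). The log2 changes were 1.66 (BFA1), 2.50 (BFA3) and 2.55 (PAB), for proteins that help to build CF1. Both RNA factor genes rose as well, AEF1 (2.85), for a protein of atpF transcript editing and splicing, and BFA2 (1.66), for one that binds between atpF and atpA. None of these 5 had a light response in cop1-6 called different from that of WT, against 34.8% of all tested probe sets in either direction. Of the 12 genes for plastid RNA polymerases and sigma factors listed, 5 were tested; the nuclear polymerase gene RPOTmp had 0.78 ± 0.52 (adjusted p = 0.232), and no probe set is listed for the 6 sigma factor genes. The mitochondrial ATP synthase list had 0 probe sets under its gene symbols.

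The other plastid genes give the setting of these values. Of 61 tested, 58 rose in blue-light WT (background 23.7% higher), with a median log2 change of 3.93. In darkness 52 were higher in cop1-6 than in WT (background 16.2%, median 2.97) and 33 in atmyc2 than in WT (background 4.54%, median 1.17). A smaller light response in cop1-6 than in WT was called for 48 (background 17.2% lower, median -3.02). The corresponding medians of the ATP synthase genes were 4.51, 2.98, 0.74 and -3.30. In WT by family, the medians in blue light were 4.94 for 5 photosystem I genes, 3.03 for 15 photosystem II genes, 2.47 for 6 cytochrome b6f genes, 4.88 for 9 NDH complex genes and 3.61 for 14 ribosomal protein genes. With ABA in WT 16 of the 61 rose (background 19.3% higher) and 4 fell (15.6% lower), 10 of those that rose being among the 14 ribosomal protein genes, against 0 and 0 of the 6 ATP synthase genes. These counts describe the families, and no difference between them was tested.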

How the data were processed

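Total RNA (5 µg, extracted with Trizol) was labelled as biotin cRNA per the labels' protocols. The deposited table holds 1 signal intensity per probe set and array, computed by the authors with GCOS 1.4 per the submitters' processing notes. Other upstream steps are not given in the sources used here. Trimmed means of the deposited intensities (2% off each end) were 100.0 on every array, so no further scaling was applied, and the median signal ran from 26.7 to 41.3. No 2 arrays were identical. The number of arrays limits the precision, and signals carry no read depth.

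Of 22810 probe sets, 64 controls were left out, and 16196 whose mean passed 19.1 in at least 1 group were tested. R 4.3.3 with limma 3.58.1 fitted log2(intensity + 1) to 12 group means over all 24 arrays, with trend and robust moderation, and 29 contrasts. The fit and the ratio tests were tested on simulated data. Genes were named from the supplied platform annotation (13513 probe sets with 1 gene, 503 with several, 8794 with none), and TAIR10.1 was used for names and neighbours. The members and lists were chosen with earlier results of these data known. Named genes were all members, the pathway lists that passed in the WT light response or its difference in cop1-6, and the 3 genes most alike to each member; other plastid families are given by counts. RPOTmp and rpoB, the ABA values of listed genes, and PSAN stand outside that rule.

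Alternatives were no pseudocount (floor 0.1), a pseudocount of 19.1, quantile normalization, a dim level of 56.5 (60th percentile, 12287 probe sets kept) or none at all (22746 kept), plain moderation, a replicate block, only the arrays compared, and each array left out, where a lone array is assumed to vary like the other groups. The labels give the groups the same replicate numbers and say nothing of a shared batch.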

Additional observations from a re-analysis of the deposited data

Results flagged for a closer look

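Values flagged here are those where the light response of a mutant, blue light minus darkness on the log2 scale, differed from that of WT by the limma test of the difference itself. In cop1-6 the differences from WT were -1.93 for atpI, -4.42 for atpH, -5.52 for atpF, -5.17 for atpA, -2.19 for atpB and -2.08 for atpE. In the double mutant they were -3.76 for atpH, -5.39 for atpF, -5.15 for atpA, -2.29 for atpB and -2.02 for atpE. In atmyc2 they were -1.80 for atpF, -2.72 for atpA, -0.85 for atpB and -0.87 for atpE. They use the same WT arrays throughout. The blue-light levels of these genes were not called different between any genotypes, while their dark levels in cop1-6 and, for 4 of the 6, in atmyc2 were called higher than in WT. The spike-in controls of the dark arrays differ between lines with and without cop1-6, and the second GAPDH ratio differs between dark atmyc2 and dark WT. The part of these was not tested.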

How the results depend on the processing

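Over the 54 called values of single genes, 657 of 716 alternative values kept their call, 59 fell short of the threshold and 0 changed sign; 39 of the 54 kept it throughout. Quantile normalization moved the median of all probe sets by -0.28 in the light response of atmyc2, -0.16 in that of cop1-6, -0.11 in that of the double mutant, -0.14 for the double mutant against atmyc2 in darkness, -0.16 in the light difference of atmyc2, 0.11 in the ABA difference of the double mutant and -0.13 in the dark interaction. Leaving out single arrays gave 1 to 4 called genes for light in cop1-6, 3 to 4 in the double mutant, 0 to 1 for cop1-6 against WT in blue light, 0 to 2 with ABA, 2 to 4 for atmyc2 against WT in darkness, 1 to 4 for the light difference of atmyc2 and 1 to 3 for the dark interaction. With only the arrays compared there were 3 for light in cop1-6, 2 for ABA in atmyc2, 4 for the double mutant against atmyc2 with ABA and 2 for the light difference of atmyc2, which was 2 with quantile normalization as well. The dark interaction had 1 at a pseudocount of 19.1 and 1 with plain moderation. The atpI value ran from -0.24 to 0.61 for atmyc2 against WT in darkness and from -0.42 to 0.54 in the light difference of atmyc2 (-0.13 with quantile normalization). The causes were not tested.

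Among ratios, light moved atpI over atpH by -1.69 at a pseudocount of 19.1 (adjusted p = 0.00823), where cop1-6 gave -0.87 (0.0509), and ABA moved it by -0.42 with quantile normalization (0.0309). Light moved atpH over atpF by -0.61 with quantile normalization (0.0494) and by -0.69 to -0.43 without single arrays, ABA moved it by 0.042 to 0.17 and atmyc2 by -0.32 to -0.14. For atpF over atpA a pseudocount of 19.1 turned the cop1-6 value to -0.031 and the atmyc2 value to -0.090 (-0.078 to 0.084 without single arrays), and atpA over atpB with ABA ran from -0.0045 to 0.12. With a replicate block the exact test has fewer arrangements, so its smallest possible p is larger. Light then gave 1.55 for atpF over atpA (exact test, adjusted p = 0.0625), again from the smallest p the arrangements allow. For atpI over atpH cop1-6 gave -0.96 (0.0651). Samples share only a number: rep 1 minus rep 2 deviations of 66 pairs of groups correlated with a median of -0.005 (-0.16 to 0.31, 8 above 0.1), and the block moved no count of called genes by over 1.5 times.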
